A study of Mus musculus with 71 samples.

Results

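Solute carrier (Slc) genes encode membrane transporters and were taken here as every gene whose name starts with Slc and a digit and that had a deposited peak within 10 kb of its transcription start site, on either side. Of 13005 genes with such a peak in at least 1 of the 9 deposited peak tables, 265 were Slc genes. They comprised 32 neuronal transporters, from a list of 34 transporters of neurotransmitter uptake, synaptic vesicle loading and neuronal ion exchange, and 233 other Slc genes. The list's Slc17a8 and Slc18a1 had no peak within the window in any table. The rule by name also took 5 genes whose products are not transporters or are not known as such: the adaptor or regulator genes Slc9a3r1, Slc9a3r2 and Slc4a1ap and the opposite-strand transcripts Slc13a2os and Slc7a6os. Where a gene had several peaks in a table, the peak with the highest mean value stood for it. At the edge of the window in the time course table lay Slc9a3r1, at 9948 bp and a mean of 9.98 tags per 10 M, and, just outside, Slc25a13 at 10139 bp and 4.05 tags per 10 M.

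The study used J1 cells, a mouse embryonic stem cell (ESC) line, and asked where Polycomb proteins lie when CBX7 is changed. The groups were cells with wild-type CBX7 (WT), cells of genotype CBX7-CaPS (CaPS), whose CBX7, going by the series title, was given a Polycomb domain found in committed cells, and cells of genotype CBX7-mCaPS (mCaPS), whose letters no label used here explains. All ESC were grown with LIF and serum on a feeder layer of mouse embryonic fibroblasts. Neural progenitor cells (NPC) came from aggregates given retinoic acid after day 4 and were taken at day 6 (NPC6) or day 8 (NPC8), and embryoid bodies (EB) were taken at day 10 (EB10). Tables covered CBX7 ChIP-seq in ESC (3 WT and 3 CaPS libraries), RING1B ChIP-seq in ESC (3 and 3), H3K27me3 ChIP-seq in ESC (2 and 2), RING1B ChIP-seq in NPC8 (2 and 2), a RING1B time course over ESC, NPC6 and NPC8 (2 libraries for each genotype and stage), and tables with 1 value a genotype: RING1B CUT&RUN in ESC (WT, CaPS and mCaPS), H3K27me3 CUT&RUN in ESC, RING1B CUT&RUN in EB10 and H3K27me3 ChIP-seq in NPC8. The columns of the last are headed as pooled tags, while the labels list 1 sample a genotype, and no source used here says which libraries went into the pool. No label used here gives the number of clones behind a genotype, and no RNA was measured, so signal at a gene says nothing about its expression or about which cells hold the signal. Libraries are named by the experiment number in their titles.

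Polycomb proteins keep developmental genes silent in cells that do not need them. Polycomb repressive complex 1 holds the ubiquitin ligase RING1B, and in ESC much of its canonical form contains CBX7, whose chromodomain binds H3K27me3, the histone mark written by Polycomb repressive complex 2. Genes of differentiated neurons, among them those for transmitter transporters, are known targets of these complexes in ESC, most often at CG-rich promoters. Vesicle loaders such as Slc32a1 and Slc17a6 fill synaptic vesicles with transmitter, plasma-membrane carriers such as Slc6a5 take transmitter back up, and exchangers such as Slc24a4 move ions across the membrane of excitable cells.

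The RefSeq promoters (GRCm38.p6, the assembly called mm10) of 5 neuronal members are shown, because these are the genes the results turn on and because they differed in CG content while all lay under broad RING1B peaks. Each line runs 5′ to 3′ on the gene's strand, from 250 bases before to 50 bases after the annotated start, and capitals mark CG dinucleotides. Slc32a1 loads GABA and glycine into vesicles, Slc18a3 acetylcholine, Slc17a6 glutamate and Slc30a3 zinc, and Slc6a5 takes up glycine at the nerve terminal.
Slc32a1: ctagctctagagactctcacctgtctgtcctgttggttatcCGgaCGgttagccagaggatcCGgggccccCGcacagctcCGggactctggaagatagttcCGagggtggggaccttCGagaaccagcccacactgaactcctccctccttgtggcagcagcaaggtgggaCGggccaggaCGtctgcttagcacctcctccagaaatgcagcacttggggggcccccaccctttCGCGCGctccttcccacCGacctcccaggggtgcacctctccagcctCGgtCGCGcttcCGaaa
Slc18a3: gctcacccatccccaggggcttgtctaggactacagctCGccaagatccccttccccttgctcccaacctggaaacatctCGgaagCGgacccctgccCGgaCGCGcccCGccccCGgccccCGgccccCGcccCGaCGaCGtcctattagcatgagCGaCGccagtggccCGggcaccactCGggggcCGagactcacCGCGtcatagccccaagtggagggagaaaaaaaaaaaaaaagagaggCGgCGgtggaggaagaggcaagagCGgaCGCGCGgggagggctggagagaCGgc
Slc30a3: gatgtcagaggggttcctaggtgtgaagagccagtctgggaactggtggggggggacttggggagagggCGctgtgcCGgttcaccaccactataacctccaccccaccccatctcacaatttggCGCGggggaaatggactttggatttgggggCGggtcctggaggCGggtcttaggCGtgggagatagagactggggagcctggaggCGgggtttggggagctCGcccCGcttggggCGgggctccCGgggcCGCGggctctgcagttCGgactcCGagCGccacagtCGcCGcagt
Slc6a5: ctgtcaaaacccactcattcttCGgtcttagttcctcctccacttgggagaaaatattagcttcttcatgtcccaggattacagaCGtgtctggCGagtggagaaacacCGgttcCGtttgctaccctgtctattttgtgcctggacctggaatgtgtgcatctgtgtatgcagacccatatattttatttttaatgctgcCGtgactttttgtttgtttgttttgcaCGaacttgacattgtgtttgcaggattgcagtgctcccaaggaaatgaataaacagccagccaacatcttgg
Slc17a6: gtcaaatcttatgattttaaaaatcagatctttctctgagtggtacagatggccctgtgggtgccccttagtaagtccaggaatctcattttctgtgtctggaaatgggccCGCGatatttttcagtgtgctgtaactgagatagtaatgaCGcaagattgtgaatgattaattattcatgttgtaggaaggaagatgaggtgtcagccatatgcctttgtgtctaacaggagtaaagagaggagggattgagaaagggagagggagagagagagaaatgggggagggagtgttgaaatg

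These windows lay at chr2:158610508-158610807 on the plus strand (Slc32a1), chr14:32464801-32465100 on the minus strand (Slc18a3), chr5:31093478-31093777 on the minus strand (Slc30a3), chr7:49911450-49911749 on the plus strand (Slc6a5) and chr7:51624387-51624686 on the plus strand (Slc17a6), and all 300 bases of each fell inside the gene's ESC RING1B peak. The search was for the letters CG, which read the same on both strands. Slc18a3 held 27 CG with a GC content of 67.0%, Slc30a3 19 with 66.3% and Slc32a1 17 with 63.3%. Slc6a5 held 7 CG with 44.3% GC, and Slc17a6 held 3 with 43.0%. Of the 27025 RefSeq promoters of the same length, 15.4% held at least as many CG as Slc18a3, 28.4% as many as Slc30a3, 31.9% as many as Slc32a1, 52.3% as many as Slc6a5 and 76.2% as many as Slc17a6. The first 3 genes were thus CG-rich, and the last 2 were at or under the usual content while still covered by RING1B. A promoter entry was matched for 214 of the 265 members. Where a member had several entries, the start nearest the centre of its ESC RING1B peak was taken, or of another peak if it had none. This choice favours overlap with the peak. The promoters over all genes were instead the first entry of each gene. Among the neuronal members, those with an ESC RING1B peak had a median of 18.5 CG (n = 22) and those without one 5.5 (n = 6), and the share with 10 or more was 86.4% against 33.3%. Among the other Slc genes the medians were 20.0 (n = 78) and 15.0 (n = 108), and the median over all RefSeq promoters was 7.0. Slc6a5 and Slc17a6 were therefore low for their own group as well.

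**Figure D1:**
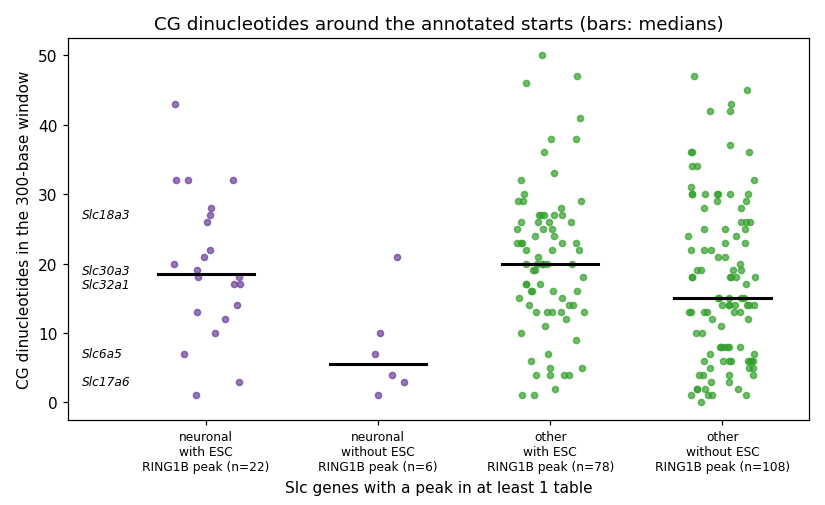
Number of CG dinucleotides in the 300-base window around the annotated start (vertical axis) for Slc genes with a peak in at least 1 table, by group and by presence of an ESC RING1B peak (horizontal axis); points are genes and bars are medians. Slc17a6 with 3 and Slc6a5 with 7 lie well under the median of 18.5 of the neuronal members with a peak.

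Values in all tables were tags in the peak scaled to 10 M tags of a library (tags per 10 M), and peaks differ in width, so levels of different genes were compared per kb of peak. Library totals ran from 2.01 M tags (WT NPC6, experiment 5) to 49.13 M (CaPS CBX7, experiment 3), so that 3 tags, used as the floor of detection, correspond to between 14.9 and 0.611 tags per 10 M. Libraries of the same kind differed in the share of tags lying in peaks: for CBX7 in ESC 6.4, 17.0 and 5.57% of tags lay in peaks in WT experiments 1, 2 and 3, against 2.63, 7.1 and 3.63% for CaPS, and for RING1B 6.57, 19.3 and 9.45% against 3.47, 8.2 and 8.34%. A difference between genotypes or stages at one gene was therefore read on the deposited scale and also after giving every library of a table the same sum over its peaks. On the second scale a gene that moved in proportion to the summed signal of the table's peaks shows no change. The sum weighs strong peaks most, so the median peak need not lie at 0 there. Its log2 difference was 0.36 for WT NPC8 against ESC in the time course. For CaPS against WT it was 0.11 for CBX7 in ESC and -0.23 for RING1B in NPC8. A direction that turned is thus best read against that median. No label ties the libraries of a group to cultures grown apart, so the p-values reflect only the spread between these libraries, which may be technical.

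In ESC, the neuronal transporters carried more CBX7, and more H3K27me3, per kb than the other Slc genes. Peaks were found near 121 Slc genes for CBX7 (26 neuronal), 120 for RING1B (26 neuronal) and 90 for H3K27me3 (23 neuronal). The CBX7 and RING1B tables list the same intervals, so their counts of peaks are not separate evidence. The median CBX7 level was 19.5 tags per 10 M per kb at neuronal members, 11.2 at the others and 14.2 over all 5383 genes with a peak in the window. For H3K27me3 the medians were 29, 21.5 and 24, and for RING1B 29, 26.4 and 28.1. Neuronal members also had wider peaks, with a median width of 1913 bp against 951 bp for CBX7 and of 3422 bp against 733 bp for H3K27me3. All 23 neuronal genes with H3K27me3 also had RING1B (88.5% of the 26 with RING1B). Of the 67 other Slc genes with H3K27me3, 48 did (71.6%, and 51.1% of the 94 with RING1B). That was near the share over all genes, 2898 of 3885 (74.6%, and 53.8% of the 5383 with RING1B). These are descriptions of levels, with no test between the groups of genes.

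The highest RING1B level per kb in ESC was not at a neuronal transporter but at Slc35d3, a member of the nucleotide sugar transporter family, with 104.0 tags per 10 M per kb. It was followed by Slc18a3 (82.4), Slc32a1 (69.5), Slc30a3 (66.4), the potassium-dependent sodium-calcium exchanger gene Slc24a4 (64.0) and Slc6a5 (49.8). For CBX7 the order was Slc35d3 (92.3), Slc18a3 (71.9), Slc24a4 (54.3), Slc30a3 (52.0) and Slc32a1 (45.1), again in tags per 10 M per kb. Positions of these RING1B peaks in mm10 were chr10:19847908-19853270 at Slc35d3 (exon 1), chr14:32459827-32466446 at Slc18a3 (6620 bp, exon 1), chr2:158608760-158617099 at Slc32a1 (8340 bp, intron 1), chr5:31090945-31096706 at Slc30a3 (5762 bp, promoter), chr12:102127283-102130718 at Slc24a4 (3436 bp), chr7:49907785-49916945 at Slc6a5 (9161 bp, intron 2) and chr7:51620733-51629033 at Slc17a6 (8301 bp, intron 1). The annotation is the one deposited for the peak's centre, so a peak called intronic could still cover the start, as the promoter windows above show. Of the 26 neuronal RING1B peaks 14 were annotated as intron, 5 as promoter and 1 as exon. Of the 94 others 38 were annotated as intron, 32 as promoter and 10 as exon.

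Across all 9 tables, 13 neuronal and 20 other Slc genes had a peak in each, and 4 neuronal and 70 other Slc genes had one in a single table. The 13 were the vesicle loaders Slc18a3, Slc32a1, Slc17a6, Slc30a3 and Slc6a17, the uptake carriers Slc6a3 (dopamine), Slc6a4 (serotonin), Slc6a5 (glycine) and Slc6a7 (proline), and the ion transporters Slc8a3, Slc12a5, Slc24a2 and Slc24a4. The 4 were Slc1a7, Slc4a8, Slc4a10 and Slc8a2. The matching shares over all genes were not counted, so no contrast between the groups is drawn from these counts. Neuronal members also had wider peaks, and the part of this in the counts was not tested. The 9 tables are not separate observations. Those of CBX7 and RING1B ChIP-seq in ESC list the same intervals. The time course shares libraries with the RING1B ChIP-seq tables of ESC and NPC8.

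CBX7 at Slc genes in ESC was lower in CaPS than in WT on the deposited scale (median log2 difference -0.92), a direction that turned to 0.07 with the same sum over peaks. Slc32a1 was the 1 neuronal gene that passed as lower on both scales. CBX7 at Slc32a1 was 305, 980.2 and 393 tags per 10 M in WT experiments 1, 2 and 3 and 95, 327 and 155 in CaPS. Experiment 2 was the highest in both genotypes, so the groups overlapped, but in each experiment CaPS lay under WT, by 1.67, 1.58 and 1.34 on the log2 scale. The fitted log2 difference was -1.53 (SE 0.27, adjusted p = 8.39e-07, limma with the experiment as a block, on log2 of the value plus 1, here and below, with Benjamini-Hochberg adjustment over all peaks). After giving every library the same sum over peaks it was -0.48 (SE 0.12, adjusted p = 0.0245). Among the other Slc genes, Slc7a2, a carrier of arginine and lysine, behaved likewise, with 76.1, 152 and 45.8 tags per 10 M in WT and 24.9, 26.6 and 15.4 in CaPS, a log2 difference of -1.85 (SE 0.30, adjusted p = 8.47e-08) and of -0.83 (SE 0.24, adjusted p = 0.0492) with the same sum. All CaPS values at Slc7a2 lay under all WT values. Such gaps between groups, here and below, describe the named gene, and their share over all genes was not counted.

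At the other broad neuronal domains CBX7 fell on the deposited scale and did not pass with the same sum over peaks. CBX7 at Slc18a3 was 475, 1150 and 423 tags per 10 M in WT and 177, 416 and 215 in CaPS, a 2.53-fold lower mean with a log2 difference of -1.29 (SE 0.28, adjusted p = 3.81e-05), which with the same sum was -0.24 (adjusted p = 0.266) and without experiment 2 had an adjusted p of 0.0682. At Slc6a5 the values were 301, 680.3 and 287 in WT against 112, 262 and 163 in CaPS, with a log2 difference of -1.20 (SE 0.27, adjusted p = 8.17e-05; -0.15 with the same sum). For both genes the groups did not overlap. Slc30a3 (-1.26) and Slc24a4 (-1.22) also fell, as did the carriers of GABA and noradrenaline, Slc6a11 (-1.71) and Slc6a2 (-1.36), and the exchanger gene Slc24a3 (-1.73). Slc17a6 stood apart: CBX7 there was 140.5, 277 and 113 tags per 10 M in WT and 67.7, 221 and 118 in CaPS. It was lower in CaPS in 2 of 3 experiments, its log2 difference of -0.44 (SE 0.27, adjusted p = 0.18) did not pass the test, and with the same sum it turned to 0.61 (SE 0.16, adjusted p = 0.0295). At Slc17a6 CBX7 in CaPS was thus higher relative to the table's other peaks than in WT.

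Counted over the group, 18 of 26 neuronal members fell and none rose (8 of 13 uptake carriers, 6 of 8 vesicle loaders and 4 of 5 ion exchangers), and 43 of 95 other Slc genes fell and none rose. Over all genes, each by its highest peak as for the members, 47.9% fell and 0.0557% rose. Over all 6326 peaks 44.3% fell and 0.0632% rose, and the median log2 difference was -1.0 at neuronal members, -0.88 at the others and -0.85 at all peaks. On the scale of the same sum these medians became -0.01, 0.10 and 0.11, and the calls became 1 lower (Slc32a1) and 1 higher (Slc17a6) at neuronal members and 1 lower (Slc7a2) and 3 higher (Slc2a4, Slc12a7 and Slc38a9) at the others. Over all genes 1.89% passed as lower and 1.37% as higher on that scale. The 8 neuronal members that did not pass the test on the deposited scale included Slc17a6, Slc17a7, Slc12a5, Slc1a6, Slc6a3, Slc6a7 and Slc6a15, and their log2 differences ran from -0.95 at Slc1a6 to 0.42 at Slc6a7. The calls rest on the paired design: without the experiment as a replicate block no Slc gene passed, and with a variance of each peak's own in place of the trend none passed either. These fits were run on the deposited scale only, here and below, so calls with the same sum over peaks have no such check. Leaving out experiment 1 left 29 of the 61 lower calls, leaving out experiment 2 left 39, and leaving out experiment 3 left 59.

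**Figure D2:**
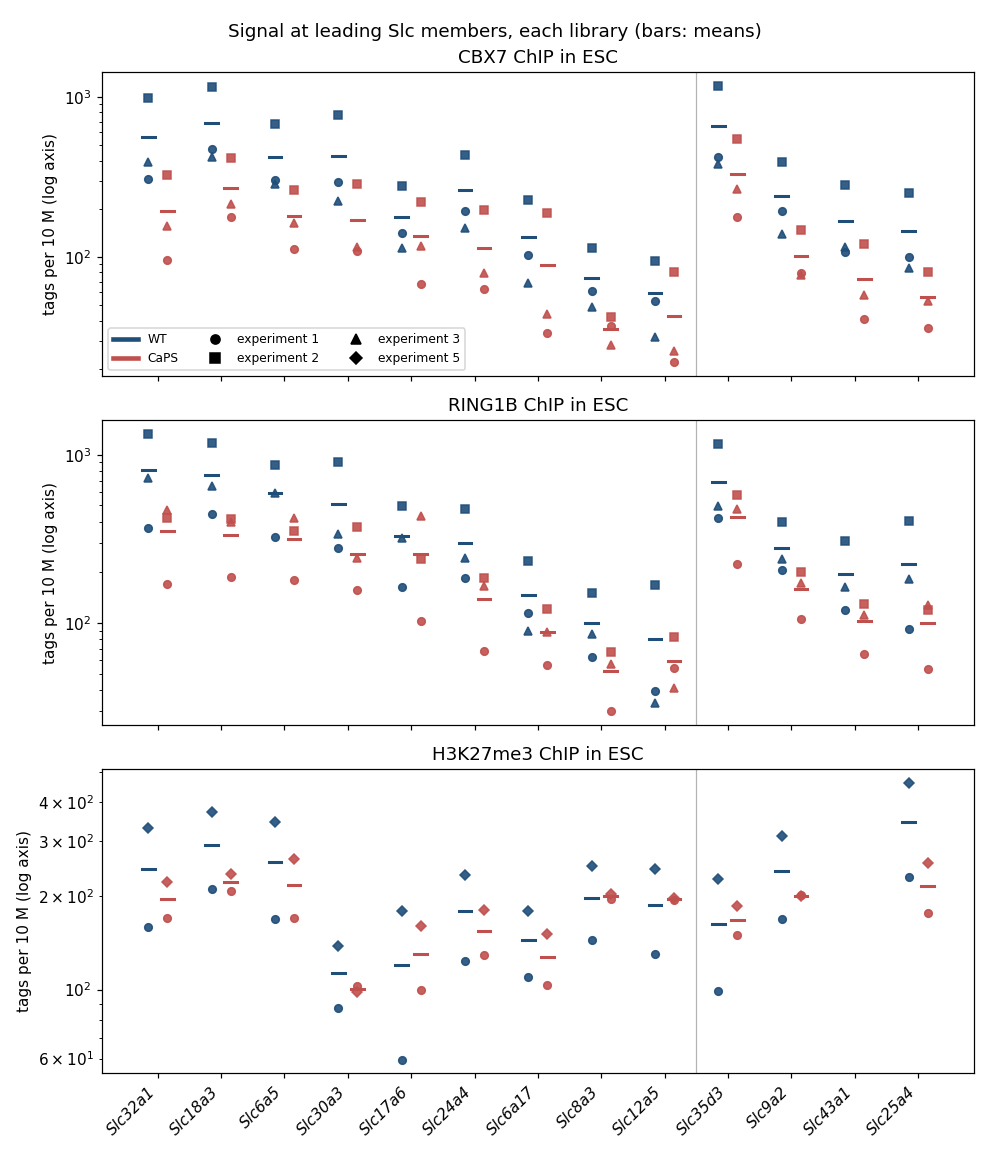
Signal at leading Slc genes in ESC (vertical axes, tags per 10 M of the whole peak on a log axis, so levels of genes with peaks of different widths are not compared) for CBX7, RING1B and H3K27me3; symbols are libraries by experiment, colours are genotypes and bars are means, and Slc43a1 has no H3K27me3 peak. At Slc32a1 CBX7 in CaPS lies under WT in each of the 3 experiments (log2 difference -1.53, or -0.48 with the same sum over peaks), while the drop at Slc35d3, Slc6a17, Slc8a3 and Slc17a6 turns to 0.10, 0.21, 0.07 and 0.61 with the same sum.

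RING1B in ESC was also lower in CaPS on the deposited scale, where the median over Slc genes turned to 0.06 with the same sum over peaks, but with larger errors than for CBX7, and 1 gene passed. RING1B at Slc32a1 was 365, 1322 and 731 tags per 10 M in WT and 172, 420.0 and 467 in CaPS, lower in CaPS in 3 of 3 experiments, with a log2 difference of -1.13 (SE 0.38, adjusted p = 0.118), and the groups overlapped. At Slc18a3 it was 446, 1171 and 655 in WT against 187, 416 and 398 in CaPS (-1.15, SE 0.38, adjusted p = 0.113). At Slc17a6 it was 164, 497 and 322 in WT against 103, 240.3 and 432 in CaPS, so experiment 3 went the other way (-0.43, SE 0.39, adjusted p = 0.546). An unadjusted p under 0.05 was found at 30 of 120 Slc genes and at 1106 of all 5383 genes. After adjustment 1 Slc gene fell and none rose, against 0.142% and 0.0% of all peaks. That gene was Slc24a3, with 40.9, 72.5 and 28.9 tags per 10 M in WT and 11.2, 0.0 and 16.6 in CaPS (-2.91, SE 0.73, adjusted p = 0.049). The CaPS library listed at 0 holds 2.23 M tags, where 3 tags are 13.5 per 10 M, and without experiment 2 the log2 difference was -1.27 (adjusted p = 0.163). Median log2 differences were -0.85 at neuronal members, -0.65 at the others and -0.67 over all peaks, and with the same sum over peaks -0.08, 0.09 and 0.07. The number of calls moved with the libraries and the tool: 23 Slc genes passed without experiment 3, none without experiment 1 or with edgeR, and 16 with DESeq2.

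The drop of CBX7 did not differ detectably from that of RING1B at the same peaks. For the difference of the log2 differences, 0 of 121 Slc genes passed in either direction (0.0% of all peaks lower and 0.0% higher), and edgeR and DESeq2 were not used on this ratio. An unadjusted p under 0.05 was found at 4 Slc genes and at 156 of all 5383 genes. At Slc32a1 the extra drop of CBX7 was -0.40 with a 95% interval from -1.24 to 0.43, at Slc18a3 -0.13 (-0.80 to 0.53) and at Slc17a6 -0.01 (-1.07 to 1.05). The intervals allow differences of more than 2-fold at Slc32a1 and Slc17a6, so they do not show that both proteins fell alike.

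H3K27me3 in ESC did not change detectably at Slc genes. At Slc18a3 it was 210.1 and 372 tags per 10 M in WT experiments 1 and 5 and 207 and 235 in CaPS (log2 difference -0.34, SE 0.51, adjusted p = 1.0). At Slc32a1 it was 159 and 330.0 in WT against 170 and 222 in CaPS (-0.24, SE 0.51), and at Slc17a6 59.5 and 180 in WT and 99.6 and 161 in CaPS (0.29, SE 0.50). The groups overlapped at each of the 3 genes, and experiment 5 was higher than experiment 1 in both genotypes. None of 90 Slc genes passed in either direction in limma, against 0.0% and 0.0% of all peaks, and edgeR and DESeq2 also called none. An unadjusted p under 0.05 was found at 1 Slc gene and at 41 of all 3885 genes. The median log2 difference was -0.06 at neuronal members, -0.01 at the others and -0.03 over all peaks. With the same sum over peaks 2 genes passed as lower, the mitochondrial ADP-ATP carrier gene Slc25a4 (-0.54, adjusted p = 0.000696) and Slc7a2 (-0.51, adjusted p = 0.022). Over all genes 0.695% passed as lower and 0.232% as higher on that scale. At Slc7a2, where CBX7 had fallen too, the values were 126 and 253 in WT against 117 and 120.2 in CaPS, with no overlap.

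Over neural differentiation of WT cells, RING1B fell at several of the Slc genes that were highest in ESC, but not at Slc17a6. RING1B at Slc18a3 was 656 and 500.5 tags per 10 M in WT ESC (experiments 3 and 5), 118 and 144 in NPC6 and 44.0 and 90.3 in NPC8. The groups did not overlap, and the log2 difference of NPC8 to ESC was -3.16 (SE 0.35, adjusted p = 5.29e-16), which with the same sum over peaks was -2.03. At Slc32a1 it was 727 and 715 in ESC, 279 and 224 in NPC6 and 116 and 202 in NPC8 (-2.23, SE 0.36, adjusted p = 2.54e-08; -1.09 with the same sum). Slc24a4 fell by 2.3 and Slc24a3 by 2.49, and both also fell with the same sum (-1.17 and -1.43). At Slc17a6 RING1B was 330 and 352 in ESC, 476 and 421 in NPC6 and 318 and 769 in NPC8, with all NPC6 values above all ESC values. Its log2 difference of NPC8 to ESC was 0.54 (SE 0.37, adjusted p = 0.327), and with the same sum it rose by 1.68 (SE 0.19, adjusted p = 7.78e-11). Slc6a5 lay between, with 621 and 634 in ESC, 329 and 399 in NPC6 and 203 and 671 in NPC8, where the 2 experiments parted (-0.76, SE 0.36, adjusted p = 0.118).

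In WT NPC8, 16 of 28 neuronal members fell and none rose, and 32 of 128 other Slc genes fell and 1 rose, where 20.9% of all peaks fell and 1.73% rose. The neuronal calls were 7 of 8 vesicle loaders, all but Slc17a6, with 6 of 15 uptake carriers and 3 of 5 ion exchangers. The median log2 difference was -1.32 at neuronal members, -0.75 at the others and -0.61 over all peaks. With the same sum over peaks the medians of the others and of all peaks turned positive (0.29 and 0.36) while that of the neuronal members was -0.22, so that neuronal members lay under all peaks by 0.72 on the deposited scale and by 0.57 with the same sum. Over all 7874 genes of the table, each by its highest peak as for the members, 30% fell and 1.07% rose, with a median of -0.79 that turned to 0.24, and the neuronal median lay under it by 0.53 and 0.46. The calls at neuronal members were then 4 lower (Slc18a3, Slc24a3, Slc24a4 and Slc32a1) and 2 higher (Slc17a6 and the glial glutamate carrier gene Slc1a3). On that scale 8.76% of all genes passed as lower and 8.93% as higher. Slc30a3 and Slc6a4 turned from a drop of 1.11 and 0.97 to 0.03 and 0.16, still under the median of all peaks. Neuronal members also had wider peaks in this table (median 2392 bp against 962 bp) and hence more tags, and the part of this in the number of calls was not tested. In WT NPC6 9 neuronal members fell and none rose, and 22 other Slc genes fell and 2 rose (Slc44a1, a choline transporter-like gene, and Slc7a7), against 14.6% and 1.61% of all peaks and 20.1% and 1.55% of all genes. Both rises rest on experiment 5: without it they were 0.17 at Slc44a1 and 0.56 at Slc7a7, without experiment 3 they were 3.45 and 4.55, and neither passed in edgeR (0.67, adjusted p = 0.603, and 1.47, adjusted p = 0.272). The largest neuronal drops at NPC6 were at the vesicular monoamine transporter gene Slc18a2 (-2.45, SE 0.42, adjusted p = 7.21e-07), Slc6a11 (-2.37) and Slc18a3 (-2.13), and at Slc18a2 and Slc18a3 they passed with the same sum as well (-1.60 and -1.25). There the median was -0.29 at neuronal members and 0.25 over all peaks, and Slc17a6 rose by 1.27 (adjusted p = 6.24e-07). The other Slc gene that rose at NPC8 was Slc44a1 (2.12, adjusted p = 0.00871), which rests on a WT ESC library listed at 0 and without experiment 5 became -0.05. With a variance of each peak's own in place of the trend, the 48 lower calls at NPC8 became 18 and the 31 at NPC6 became 0.

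**Figure D3:**
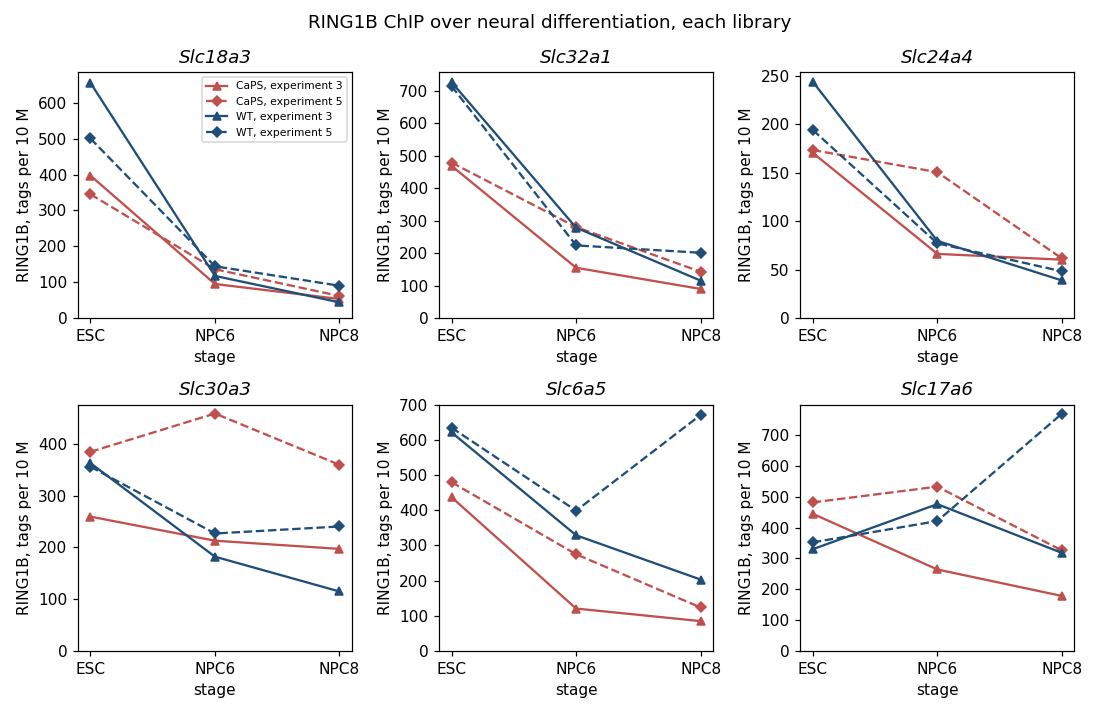
RING1B ChIP-seq values (vertical axes, tags per 10 M) over ESC, NPC6 and NPC8 at 6 neuronal Slc genes; each line is 1 experiment of 1 genotype. Lines fall at Slc18a3, Slc32a1 and Slc24a4 in both genotypes, on either scaling. WT at Slc17a6 reaches 318 and 769 at NPC8 while CaPS reaches 178 and 326. The drop of WT at Slc30a3 turns to no drop with the same sum over peaks, though the median of all peaks is then 0.36.

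In CaPS RING1B also fell from ESC to NPC8 at Slc18a3, Slc32a1 and Slc24a4, and at Slc6a5, on either scale. RING1B at Slc18a3 was 397 and 345 tags per 10 M in CaPS ESC, 95.1 and 136 in NPC6 and 53.3 and 61.7 in NPC8 (NPC8 to ESC -2.67, SE 0.35, adjusted p = 1.98e-11). At Slc32a1 it was 469 and 479, then 155 and 281, then 90.0 and 143 (-2.05, SE 0.36, adjusted p = 8.4e-07). At Slc6a5 it was 437 and 479, then 120.3 and 275, then 84.7 and 123 (-2.15, SE 0.36, adjusted p = 2.95e-07; -1.45 with the same sum), with no overlap between ESC and NPC8. At Slc30a3 it was 259 and 384, then 213 and 458, then 197 and 359, so no stage stood apart (-0.25, SE 0.36, adjusted p = 0.698). At Slc17a6 it was 445 and 482, then 264 and 533, then 178 and 326 (-0.94, SE 0.37, adjusted p = 0.0668). In NPC8 12 of 28 neuronal members fell and none rose, and 18 of 128 other Slc genes fell and 2 rose (Slc25a30 and the iodide transporter gene Slc5a5), against 14.1% and 1.63% of all peaks and 19.5% and 1.96% of all genes. The rise of Slc5a5 was 0.47 without experiment 5 and 1.88 without experiment 3, with an adjusted p of 0.0591 in edgeR. The medians were -1.01 at neuronal members, -0.56 at the others, -0.48 over all peaks and -0.57 over all genes, and with the same sum -0.36, 0.12, 0.13 and 0.08. In NPC6 3 neuronal members fell (Slc18a3, Slc6a5 and Slc32a1) and none rose, and 4 other Slc genes fell and 4 rose (Slc5a5, Slc5a6, Slc12a2 and Slc37a3), against 5.06% and 2.45% of all peaks and 5.96% and 3.1% of all genes. Without experiment 5 the rise was 0.29 at Slc5a6, 0.99 at Slc12a2 and 1.24 at Slc37a3, and none of these 3 passed in edgeR (adjusted p = 0.439, 0.0625 and 0.0673). Without the replicate block 13 Slc genes passed as lower in CaPS NPC8 and 2 in NPC6, and with each peak's own variance 2 and 0.

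Slc17a6 and Slc6a5 went from ESC to NPC8 with a lower change in CaPS than in WT, but on the deposited scale the difference did not pass the test. The change from ESC to NPC8 in CaPS minus that in WT was -1.47 on the log2 scale at Slc17a6 (SE 0.53, adjusted p = 0.392) and -1.39 at Slc6a5 (SE 0.51, adjusted p = 0.397). By experiment it was -1.26 in experiment 3 and -1.69 in experiment 5 at Slc17a6, and -0.74 and -2.03 at Slc6a5, so its size at Slc6a5 rests largely on experiment 5. Both passed with the same sum over peaks, at -1.91 (SE 0.27, adjusted p = 7.27e-07) and -1.83 (SE 0.29, adjusted p = 1.93e-05), and no other Slc gene did. Over all genes 0.546% passed as lower and 0.533% as higher on that scale. Each group holds 2 libraries, and neither call was checked there without the trend or the block. In limma on the deposited scale 0 of 156 Slc genes passed in either direction, against 0.0729% of all peaks lower and 0.199% higher, and edgeR and DESeq2 also called none. An unadjusted p under 0.05 was found at 14 Slc genes and at 639 of all 7874 genes. For NPC6 the same interaction, added after the data were seen, called 0 lower and 1 higher (Slc12a2), against 0.0199% and 0.351% of all peaks, and with the same sum 2 lower (Slc17a6 and Slc25a31) and 0 higher. With the same sum 0.343% of all genes passed as lower and 0.318% as higher.

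At NPC6, 9 of 156 Slc genes (5.77%) passed as higher in RING1B in CaPS than in WT and none as lower, on the deposited scale, against 3.66% and 0.325% of all peaks and 5.04% and 0.152% of all genes, so the share was near that of all genes. On the scale of the same sum 4 passed as higher and 4 as lower, against 2.24% and 1.21% of all genes. The 3 neuronal members were the glial glutamate carrier gene Slc1a2, with 27.8 and 44.8 tags per 10 M in WT and 60.1 and 116 in CaPS (1.22, SE 0.39, adjusted p = 0.0474), Slc18a2, with 17.2 and 9.96 in WT and 29.6 and 57.8 in CaPS (1.59, adjusted p = 0.0106), and the glycine carrier gene Slc6a9, with 5.72 and 4.98 in WT and 23 and 28.9 in CaPS (2.08, adjusted p = 0.0328). At all 3 genes the groups did not overlap, but they were picked by the test, so this is no separate support. Without experiment 5 the difference at Slc18a2 was 0.75 and without experiment 3 it was 2.42, and none of the 3 passed in edgeR (adjusted p = 0.109 at Slc1a2, 0.147 at Slc18a2 and 0.0936 at Slc6a9). The 6 other Slc genes were Slc12a2, Slc16a9, Slc22a23, Slc27a2, Slc35f1 and Slc45a3. The WT NPC6 library of experiment 5 has 2.01 M tags, so its values under 14.9 rest on fewer than 3 tags, as at Slc18a2 and Slc6a9. Without experiment 5 the difference at Slc22a23 was 0.14 and at Slc12a2 0.94. With the same sum over peaks the higher ones were Slc12a2, Slc22a23, Slc27a2 and Slc35f1, and the lower ones were Slc6a5 (-1.39, adjusted p = 1.4e-06), Slc17a6 (-0.66, adjusted p = 0.0412), Slc25a4 and Slc25a31. Without the replicate block 1 gene passed as higher, with each peak's own variance 0, with edgeR 2 and with DESeq2 3.

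**Figure D4:**
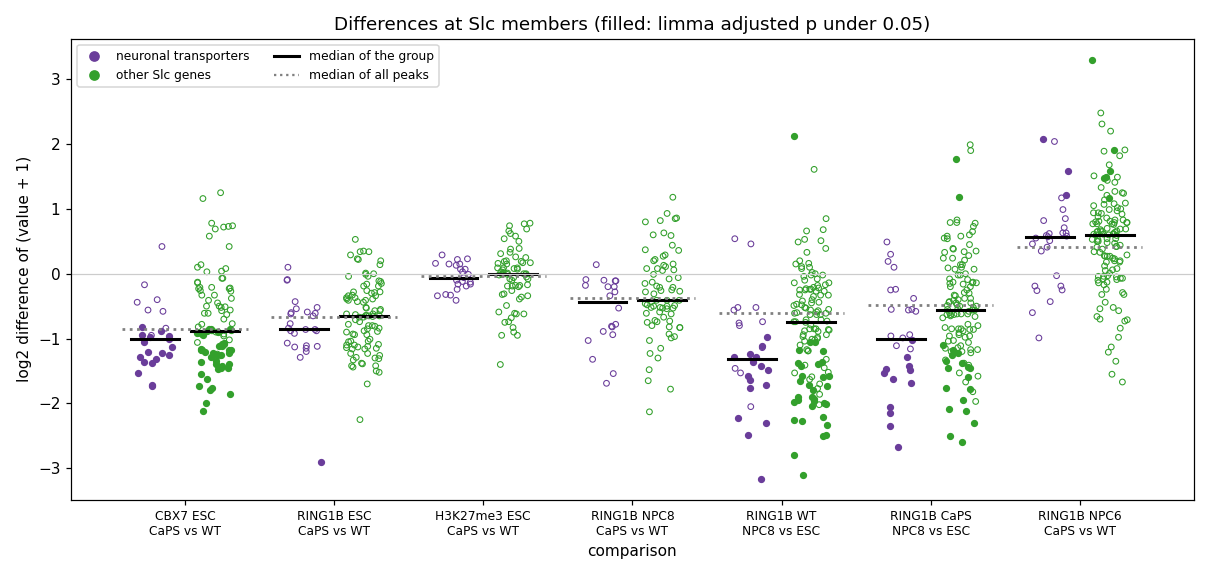
Log2 differences (vertical axis) at Slc genes in the main tested comparisons (horizontal axis); each point is 1 gene, filled where the limma adjusted p is under 0.05, black bars are medians of neuronal and other members and dotted lines are medians over all peaks of the table. Neuronal members lie under all peaks in the WT and CaPS NPC8 columns (medians -1.32 and -1.01 against -0.61 and -0.48), and with the same sum over peaks those medians become -0.22 and -0.36 against 0.36 and 0.13.

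The table made for NPC8 alone, with experiments 3 and 4, also had less RING1B in CaPS than in WT at Slc6a5 and Slc17a6, short of the test on the deposited scale. RING1B at Slc6a5 was 496 and 164 tags per 10 M in WT (experiments 4 and 3) and 118 and 65.7 in CaPS, and at Slc17a6 464 and 301 in WT and 242 and 166 in CaPS. In neither gene did the groups overlap, and CaPS was lower in 2 of 2 experiments. How often groups of 2 libraries did not overlap over all genes was not counted. At Slc30a3 the values were 516 and 110.3 in WT against 255 and 196 in CaPS, so the experiments went opposite ways. In limma, log2 differences were -1.69 at Slc6a5 (SE 0.87, adjusted p = 0.499), -0.89 at Slc17a6 (SE 0.84, adjusted p = 0.773) and -0.10 at Slc30a3 (SE 0.85, adjusted p = 0.987). An unadjusted p under 0.05 was found at 3 of 93 Slc genes and at 369 of all 4196 genes. None of the 93 Slc genes passed in either direction, against 0.0% and 0.0% of all peaks, and edgeR and DESeq2 also called none. With the same sum over peaks 3 passed as lower: Slc6a5 (-1.55, SE 0.24, adjusted p = 3.84e-08), Slc17a6 (-0.76, SE 0.21, adjusted p = 0.00862) and Slc17a4 (-2.02, adjusted p = 0.0399). Over all genes 4.29% passed as lower and 3.98% as higher on that scale, so 3 of 93 was not above that share. Slc17a4 had a peak at -8907 bp with a mean of 6.865 tags per 10 M. This is near the floor, as 3 tags are 5.74 per 10 M in WT experiment 4. Experiment 3 of this table also stands in the time course, so only experiment 4 adds libraries to it. Per kb, the highest RING1B in NPC8 was at Slc30a3 (38.5 tags per 10 M per kb), Slc17a6 (37.6), the sodium-proton exchanger gene Slc9a2 (36.9), the imino acid carrier gene Slc6a20a (36.6), Slc6a5 (35.3) and Slc32a1 (32.8), without the lead that Slc35d3 and Slc18a3 had in ESC.

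H3K27me3 in NPC8 was given as the authors' pooled value for each genotype and hence has no test. On the deposited scale it was lower in CaPS at Slc6a5 and Slc17a6, but also at Slc32a1, Slc30a3 and most peaks of the table. It was 947 tags per 10 M in WT and 349 in CaPS at Slc6a5, a ratio of 0.369 with a 95% exact binomial (Clopper-Pearson) interval from 0.330 to 0.413, which, like all such intervals here, covers counting error only. At Slc17a6 it was 1053 and 427 (ratio 0.406, 0.366 to 0.452), at Slc32a1 866 and 348 (0.402, 0.358 to 0.452), at Slc30a3 1181 and 571 (0.484) and at Slc18a3 1135 and 576 (0.507). Past 2-fold lay 8 of 27 neuronal members, among them Slc12a5 and Slc24a3, and 27 of 69 other Slc genes, all lower, where 54.5% of all peaks were lower and 3.06% higher by that rule. Over all genes, each by its highest peak as for the members, 1863 of 4169 were lower and 75 higher. The largest drops with intervals clear of 1 among the others included the potassium-chloride cotransporter gene Slc12a4 (196 to 25.8, ratio 0.132, 0.0973 to 0.181) and Slc7a7 (235 to 63.7, ratio 0.271). The share of tags in peaks was 16.4% in WT and 8.2% in CaPS, and the median log2 ratio over the Slc genes of -0.83 turned to 0.13 with the same sum over peaks. With the same sum the intervals of 11 of the 27 neuronal members lay above 1 and those of 3 under it. The 3 were Slc6a5, Slc17a6 and Slc32a1. Over all genes 28.3% lay above 1 and 18.6% under it. On the deposited scale 0 neuronal members lay above 1 and 23 under it, against 2.71% and 73.2% of all genes. Of the neuronal genes with H3K27me3, all 23 with an ESC peak had one in NPC8 (85.2% of the 27), and 19 of 26 with ESC RING1B had NPC8 RING1B (73.1%, and 95% of the 20). For the other Slc genes these were 42 of 67 (62.7%, and 60.9% of 69) and 46 of 94 (48.9%, and 63.0% of 73). Over all genes with a peak in the window they were 2637 of 3885 (67.9%, and 63.3% of 4169) and 2920 of 5383 (54.2%, and 69.6% of 4196), so over all genes too a larger share of the ESC genes had a peak in NPC8 for H3K27me3 than for RING1B. Peaks were called separately for each table, so these counts also depend on its depth.

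CUT&RUN of RING1B in ESC, which cuts native chromatin around the bound antibody instead of pulling down crosslinked fragments, also gave lower values in CaPS at neuronal domains on the deposited scale, with 1 library a genotype (median log2 ratio over Slc genes -0.64, or -0.07 with the same sum over peaks). RING1B at Slc32a1 was 299 tags per 10 M in WT, 133 in CaPS and 120.4 in mCaPS, a ratio to WT of 0.445 (0.370 to 0.535) in CaPS and 0.403 (0.331 to 0.485) in mCaPS. At Slc18a3 it was 245, 123 and 85.1 (ratios 0.502 and 0.347), and at Slc6a5 216, 120.0 and 91.7 (0.557 and 0.426). At Slc17a6 it was 67.6, 47.2 and 22.9, with ratios to WT of 0.698 (0.503 to 0.976) in CaPS and 0.339 (0.214 to 0.520) in mCaPS. With the same sum over peaks, intervals of CaPS to WT lay under 1 at 5 of 30 neuronal members, Slc32a1 among them, and above 1 at 0. Over all genes 6.62% lay under 1 and 4.47% above it. For mCaPS to WT 4 neuronal members then lay under 1 and 3 above, against 4.08% and 6.46% of all genes.

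Between the changed forms of CBX7, Slc32a1 did not differ past counting error (mCaPS to CaPS ratio 0.907, 0.709 to 1.1), whereas Slc17a6 (0.486, 0.289 to 0.782) and Slc24a4 (0.433, 0.245 to 0.709) were lower in mCaPS on the deposited scale. This contrast did not hold with the same sum over peaks: the ratio was 0.708 (0.421 to 1.1) at Slc17a6, 0.63 (0.356 to 1.03) at Slc24a4 and 1.32 (1.03 to 1.66) at Slc32a1. The third neuronal gene past 2-fold was Slc6a3 (0.5, 0.251 to 1.02). In CaPS against WT 62 of 189 Slc genes were past 2-fold lower and 1 higher, the riboflavin transporter gene Slc52a2 (ratio 3.87, 1.19 to 13.6), where 27.3% of all peaks were lower and 0.861% higher. The neuronal share was 8 of 30, all lower. In mCaPS against WT 101 were lower (17 of 30 neuronal) and 1 higher, Slc4a5, which had under 3 tags in WT (ratio 5.39, 1.08 to 26.3), against 51.4% and 0.623% of all peaks. In mCaPS against CaPS 24 were lower (3 of 30 neuronal) and 9 higher, none of them neuronal, against 14.9% and 5.28%. These counts became, with the same sum over peaks, 17 lower and 3 higher, 10 and 20, and 4 and 26, so the direction of the mCaPS comparisons turned. The share of tags in peaks was 4.61% in WT, 3.01% in CaPS and 2.07% in mCaPS. Slc9a2 had 104.5 tags per 10 M in WT and 34.8 in mCaPS and is listed at 0 in CaPS, but it lay in a run of 23 neighbouring peaks at 0 in that library on chromosome 1, from 39361790 to 44552793, and the CaPS RING1B ChIP-seq libraries in ESC had 105, 202 and 172 tags per 10 M there, so no fold is given for it. It is counted above among the 62 lower and the 9 higher, which without it, a count made after the data were seen, were 61 of 188 and 8 of 188.

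**Figure D5:**
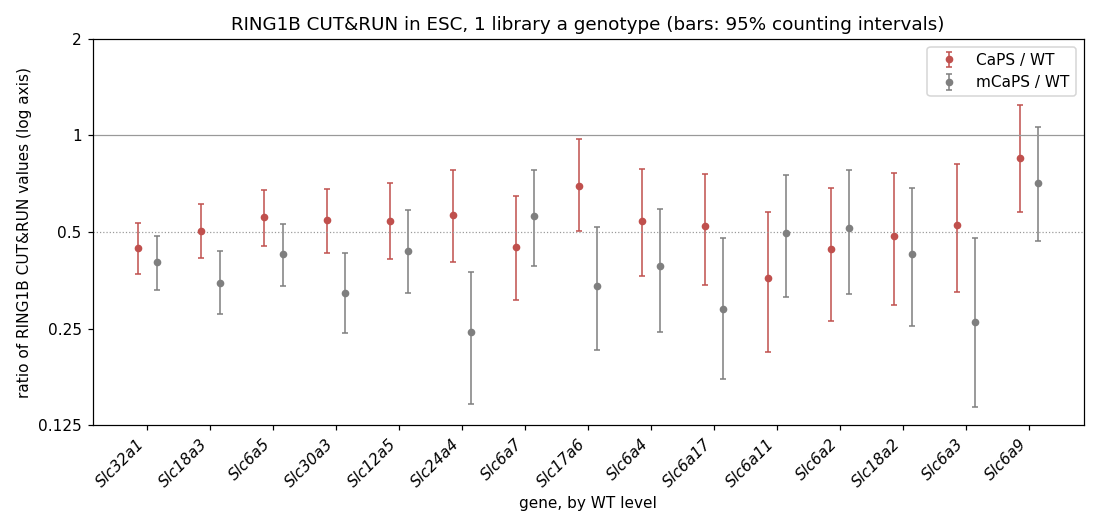
Ratios of RING1B CUT&RUN values in ESC, CaPS to WT and mCaPS to WT (vertical axis, log scale), at the 15 neuronal Slc genes with the highest WT values (horizontal axis, by WT level); bars are 95% counting intervals of 1 library a genotype and the dotted line marks 2-fold. Slc32a1 has ratios of 0.445 and 0.403 and Slc17a6 of 0.698 and 0.339; with the same sum over peaks the median log2 ratio of all Slc genes in mCaPS turns from -0.98 to 0.11.

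H3K27me3 CUT&RUN in ESC, also with 1 library a genotype, did not show the drop on the deposited scale. It was 502 tags per 10 M in WT and 516 in CaPS at Slc18a3 (ratio 1.03, 0.931 to 1.1), 328 and 297 at Slc32a1 (0.906, 0.798 to 1.03) and 165 and 231 at Slc17a6 (1.40, 1.18 to 1.64). Slc6a5 (1.39, 1.23 to 1.57) and the vesicular amino acid carrier gene Slc6a17 (1.51, 1.32 to 1.73) were also higher in CaPS past counting error on the deposited scale, as were 14 of 25 neuronal members in all, and 0 were lower, where the intervals of 36.6% of all genes lay above 1 and those of 5.61% under it. With the same sum over peaks 1 neuronal member was higher and 5 were lower past counting error, against 11.3% and 21.5% of all genes. The ratio was then 1.11 (0.942 to 1.31) at Slc17a6, 1.1 (0.982 to 1.25) at Slc6a5, 1.2 (1.05 to 1.38) at Slc6a17, 0.819 (0.741 to 0.906) at Slc18a3 and 0.722 (0.636 to 0.822) at Slc32a1. The share of tags in peaks was 5.83% in WT and 7.32% in CaPS. None of 94 Slc genes was past 2-fold in either direction, against 1.08% of all peaks lower and 4.57% higher. Neuronal members had a median log2 ratio of 0.32 and all Slc genes one of 0.24, and the latter turned to -0.09 with the same sum over peaks.

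In EB10, with 1 library a genotype, 4 of the neuronal domains did not differ past counting error between the genotypes. RING1B CUT&RUN at Slc32a1 was 111 tags per 10 M in WT and 91.0 in CaPS (ratio 0.821, 0.636 to 1.07), at Slc18a3 74.4 and 64.2 (0.863, 0.634 to 1.19), at Slc17a6 60.6 and 63.8 (1.05, 0.768 to 1.49) and at Slc6a5 34.1 and 50.8 (1.49, 0.999 to 2.27). The intervals of these 4 genes all included 1. They reached down to 0.634 at Slc18a3 and up to 2.27 at Slc6a5, so they do not show that the genotypes were alike. Past 2-fold were 11 of 120 Slc genes lower and 13 higher, against 8.84% and 16.6% of all peaks. The neuronal ones were the sodium-calcium exchanger gene Slc8a3, lower with 31.7 and 12.2 tags per 10 M (0.385, 0.197 to 0.714), and Slc6a7, higher with 3.66 and 9.35 (2.55, 0.787 to 8.70). Slc20a1, a phosphate transporter gene, was the clearest of the higher ones by its interval, with 22.4 tags per 10 M in WT and 48.8 in CaPS (2.18, 1.35 to 3.49). Of the 26 neuronal genes with RING1B in ESC ChIP-seq, 16 had a peak in EB10 (61.5%, and 84.2% of the 19 there). For the other Slc genes it was 59 of 94 (62.8%, and 58.4% of the 101 there). Over all genes it was 3531 of 5383 (65.6%, and 59.3% of 5956), so the neuronal share of ESC genes was near that of all genes.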

How the data were processed

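ChIP-seq and CUT&RUN libraries were cut with cutadapt 1.14 and aligned with Bowtie2 2.3.4.3, handled with SAMtools 1.9 and counted with HOMER 4.10.4, with builds mm10 and dm6 named, per the submitters' processing notes. ChIP chromatin carried Drosophila spike-in, per the labels' protocols; no source used here says whether it entered the scaling. The deposited values are signal: tags in a peak scaled by the authors to 10 M per library, per the file headers. Multiplied back by the header totals, 100.0% of values were whole multiples of 0.5 tag, within 0.05 of a read end, and edgeR 4.0.16 and DESeq2 1.42.0 were run as alternatives on counts of read ends. Header totals of one library can differ between tables, so levels are compared within a table. Knockout samples were not analysed here, and 2 columns of per-sample values that match no used sample were left out.

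The main test was limma 3.58.1 (R 4.3.3) on log2 of the value plus 1, two-sided, with an intensity trend in the variance and the experiment number as a block, over all peaks of a table, at an adjusted p under 0.05. The estimated prior made each peak's variance equal to the trend, except for the CBX7 to RING1B ratio. The block follows the design text, by which comparisons were made between experiments done at the same time. Libraries with the same number had correlated deviations of 0.04 to 0.3 (CBX7 in ESC), -0.02 to 0.23 (RING1B in ESC), 0.09 (H3K27me3 in ESC), 0.25 (RING1B in NPC8) and 0.06 to 0.22 (time course). Groups of 1 library, or of 1 pooled column of the authors (H3K27me3 in NPC8), were compared by the ratio, called past 2-fold, with an exact binomial interval of 95%. The tests were tested on simulated data with known changes. Tools were Python 3.11.15, pandas 2.3.3, numpy 2.4.6, scipy 1.17.1 and matplotlib 3.10.9.

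The members and lists were chosen with earlier results of these data known. Genes are named by this rule: in each table the 6 neuronal and 6 other members with the highest mean values; in each tested comparison up to 6 neuronal and 6 other called members in each direction with the largest differences (4 and 4 for single libraries); up to 12 members with a peak in most tables; and those next to the distance limit. Members outside it are named where they complete a count and were chosen after their values were seen. Alternatives were no block, pseudocount 5, a mean of at least 20, the same sum over peaks, no trend, each experiment left out, edgeR, DESeq2, peaks within 2 kb, the nearest peak and a 1.5-fold limit, and, added after the data were seen, peaks off chromosomes 6 and 8, the NPC6 interaction and counts without the member in a run of peaks at 0. The results of 1 neuronal member are not reported here by name.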

Additional observations from a re-analysis of the deposited data

Results flagged for a closer look

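RING1B at Slc12a2, a sodium-potassium-chloride cotransporter gene, changed differently from ESC to NPC6 in CaPS and in WT by an interaction term. The difference was 3.82 on the log2 scale (adjusted p = 0.00218, limma). The values were 13.98 and 22 tags per 10 M in WT ESC (experiments 3 and 5), 17.7 and 0.0 in WT NPC6, 17.1 and 8.27 in CaPS ESC and 34.9 and 49.6 in CaPS NPC6. The WT NPC6 library of experiment 5, listed at 0, holds 2.01 M tags, and 3 tags there are 14.9 per 10 M. Without experiment 5 the difference was 0.67, and without experiment 3 it was 6.97. With edgeR it was 1.73 (adjusted p = 0.583).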

How the results depend on the processing

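Between the named settings, the counts of Slc genes that passed moved most with the scaling, the trend and the pairing; the cause was not tested. The medians over Slc genes kept their direction without the replicate block, with no trend, with edgeR and with DESeq2. Each setting was changed alone, so calls with the same sum over peaks were not checked without the block or the trend.

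Giving every library the same sum over peaks changed the number of Slc genes called lower to 2 and higher to 4 for CBX7 in ESC, and lower to 0 for RING1B and 2 for H3K27me3 in ESC and to 3 for RING1B in NPC8. In the time course, WT NPC6 then had 9 lower and 17 higher, WT NPC8 10 and 12, CaPS NPC6 4 and 17, CaPS NPC8 8 and 10, and CaPS against WT at NPC6 4 and 4. Over all genes the shares were 5.87% and 9.69% in WT NPC6 and 8.76% and 8.93% in WT NPC8. In CaPS they were 4.5% and 7.65% in NPC6 and 7.91% and 6.72% in NPC8. The interaction at NPC8 had 2 lower, and that at NPC6 2 lower and 0 higher. In single libraries the counts past 2-fold became 17 and 3 for RING1B CUT&RUN in CaPS against WT, 10 and 20 in mCaPS against WT, 4 and 26 in mCaPS against CaPS, 1 lower for H3K27me3 CUT&RUN, and 5 and 6 for H3K27me3 in NPC8. Medians that turned direction became 0.07 (CBX7 in ESC), 0.06 (RING1B in ESC), 0.26 (WT NPC6), 0.14 (WT NPC8), 0.16 (CaPS NPC6), 0.06 (CaPS NPC8), 0.11 (mCaPS against WT), 0.23 (mCaPS against CaPS), -0.09 (H3K27me3 CUT&RUN) and 0.13 (H3K27me3 in NPC8). Single genes that turned included, for CBX7 in ESC, Slc16a11 (0.16), Slc18a2 (0.07), Slc1a2 (0.05), Slc25a48 (0.12), Slc35d3 (0.10), Slc35f1 (0.16), Slc6a17 (0.21) and Slc8a3 (0.07), and, for WT NPC8, Slc30a3 (0.03) and Slc6a4 (0.16).

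Without the replicate block, which pairs libraries by experiment, the counts became 0 lower for CBX7 and 0 for RING1B in ESC, 1 higher in WT NPC6, 2 lower and 1 higher in CaPS NPC6, 13 lower and 0 higher in CaPS NPC8, 1 higher for CaPS against WT at NPC6 and 0 for the NPC6 interaction. With no trend they were 0 lower for CBX7 and RING1B in ESC, 0 and 0 in WT NPC6, 18 lower and 0 higher in WT NPC8, 0 and 0 in CaPS NPC6, 2 and 0 in CaPS NPC8, 0 higher for CaPS against WT at NPC6 and 0 for the NPC6 interaction.

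Leaving out 1 experiment gave 29 to 59 lower and 0 to 2 higher calls for CBX7 in ESC and 0 to 23 lower for RING1B in ESC. Without experiment 3 the CaPS NPC6 median turned to 0.20, and without experiment 5 it was -0.47. Without experiment 5, Slc12a2 in WT NPC6 turned to 0.32 and Slc44a1 in WT NPC8 to -0.05, and without experiment 3 they were -4.52 and 4.29.

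With edgeR the counts that moved were 0 lower for RING1B in ESC, 0 higher in WT NPC6 and WT NPC8, 1 higher in CaPS NPC6 and CaPS NPC8, 2 higher for CaPS against WT at NPC6 and 0 for the NPC6 interaction. With DESeq2 they were 16, 0, 0, 1 (CaPS NPC8), 3 and 0. With a pseudocount of 5 there were 0 lower for RING1B in ESC and 1, 0 and 8 higher in WT NPC6, WT NPC8 and CaPS NPC6. With a mean of at least 20 tags per 10 M there were 2 lower for RING1B in ESC, 0, 0 and 1 higher in WT NPC6, WT NPC8 and CaPS NPC8, and 1 higher for the NPC8 interaction. RING1B CUT&RUN then had 33 lower and 0 higher in CaPS against WT, 52 and 0 in mCaPS against WT, 4 and 0 in mCaPS against CaPS, and 1 and 2 in EB10. Without chromosomes 6 and 8, chosen after seeing the data, there were 0 lower for RING1B in ESC and 2 and 1 higher in CaPS NPC6 and NPC8. Peaks within 2 kb gave 3 lower in CaPS NPC6 and 6 in EB10. At a 1.5-fold limit there were 106 lower and 2 higher for RING1B CUT&RUN in CaPS against WT, 2 higher in mCaPS against WT, 61 and 18 in mCaPS against CaPS, 2 and 11 for H3K27me3 CUT&RUN, 19 and 29 in EB10, and 68 and 2 for H3K27me3 in NPC8.

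Depth limits the time course most: at 2.01 M tags, values under 14.9 tags per 10 M rest on fewer than 3 tags. With 2 libraries a group in most comparisons, a gene that did not pass is not shown to be unchanged.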
